A study of Mus musculus with 9 samples.

Results

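The 37 genes described here encode contractile and cytoskeletal proteins of smooth muscle. They were given as a list of gene symbols, and all 37 were found among the 21049 genes of a table of normalized read counts from sorted mouse lung cells. Each of them also passed the filter on low values (at least 10 in at least 3 libraries), as did 15647 genes in all.

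Gene expression had been measured by RNA sequencing in 9 libraries, 3 for each of 3 sorted smooth muscle populations, so that pulmonary smooth muscle types could be compared directly. The libraries labelled BSMCs were bronchial smooth muscle cells of the genotype Chrm2/Acta2-CreER/R26-GFP, which the design text calls NVSMC-effector mice. Those labelled PASMCs were pulmonary arterial smooth muscle cells of the genotype Cspg4/Acta2-CreER/R26-GFP, called ASMC-effector mice. Those labelled SmMCll were pulmonary smooth muscle cells, venous cells among them, of the genotype tg-Acta2-GFP. Tamoxifen is listed for all 9 libraries (0.75 mg per 10 g body weight for 3 days), the tg-Acta2-GFP libraries included, whose genotype names no CreER. Every line thus relied on Acta2, the gene of smooth muscle actin, as a driver or as the promoter of the reporter, and the ages of the mice are not given. Since every group had its own mouse line and its own sort, neither can be told apart from the cell population. Whether the 3 libraries of a group came from different mice is not stated, so p-values measure only the spread between these libraries, which may be technical.

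In smooth muscle, bundles of myosin pull on actin filaments, and the filaments are held at dense bodies and at the plasma membrane. Phosphorylation of the myosin regulatory light chain starts the cycle of contraction, and thin filament proteins such as tropomyosin, caldesmon and calponin modulate it. Alpha-actinin, filamin and the PDZ-LIM proteins cross-link and anchor the filaments, desmin and vimentin form the intermediate filaments between them, and small heat shock proteins bind the cytoskeleton and are phosphorylated during contraction and relaxation. Many of these genes are known targets of serum response factor, which binds the CArG box.

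Promoters that hold such a box are shown here as a description only. RefSeq promoter windows (GRCm38.p6, 250 bases before and 50 after a transcription start, 300 in all) were matched by symbol for 32 of the 37 genes and gave 41 windows. No window was matched for Csrp2, Myh11, Nexn, Svil and Tagln. A CArG box, which is 10 bases long and reads as a CArG box on either strand, was present in 5 of the 41 windows (12.2%) and in 535 of all 32851 windows of that length (1.63%). The 5 windows belonged to 4 genes, the light chain genes Myl9 and Myl6, the calponin gene Cnn2 and the PDZ-LIM gene Ldb3, whose 2 windows shared the same box. A match describes the letters of the window and shows neither a bound site nor a cause. The 250 bases before the start follow, with the box in capitals.
Myl9: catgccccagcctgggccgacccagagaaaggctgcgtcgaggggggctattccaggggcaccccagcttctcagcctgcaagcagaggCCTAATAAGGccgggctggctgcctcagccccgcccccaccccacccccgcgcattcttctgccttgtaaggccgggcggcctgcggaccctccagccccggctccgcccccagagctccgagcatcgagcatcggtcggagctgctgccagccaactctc
Cnn2: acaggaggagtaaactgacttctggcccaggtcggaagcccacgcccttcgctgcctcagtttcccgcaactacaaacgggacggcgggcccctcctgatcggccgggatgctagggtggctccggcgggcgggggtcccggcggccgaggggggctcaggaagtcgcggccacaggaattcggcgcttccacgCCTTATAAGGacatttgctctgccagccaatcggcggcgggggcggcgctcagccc
Myl6: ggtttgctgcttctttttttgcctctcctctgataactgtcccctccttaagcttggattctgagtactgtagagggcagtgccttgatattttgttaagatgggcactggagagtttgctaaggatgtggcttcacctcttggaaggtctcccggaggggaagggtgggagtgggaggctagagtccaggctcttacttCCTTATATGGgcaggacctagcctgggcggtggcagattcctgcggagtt
Ldb3: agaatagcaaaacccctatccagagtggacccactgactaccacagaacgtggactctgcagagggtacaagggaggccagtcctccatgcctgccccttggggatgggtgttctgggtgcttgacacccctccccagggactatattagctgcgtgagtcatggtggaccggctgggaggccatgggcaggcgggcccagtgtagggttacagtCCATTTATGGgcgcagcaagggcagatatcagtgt
The Myl9 window lay on the plus strand at chr2:156775214-156775463, with the box 161 bases before the start. The Cnn2 window lay on the plus strand at chr10:79988350-79988599, with the box 56 bases before the start. The Myl6 window lay on the minus strand at chr10:128493010-128493259, with the box 50 bases before the start. The Ldb3 window lay on the minus strand at chr14:34588682-34588931, with the box 35 bases before the start. These 4 genes did not share a pattern of calls. Of the 12 genes called lower in SmMCll than in PASMCs, only Ldb3 had a box, and Nexn and Tagln had no window. Myl6 and Ldb3 were lower in libraries labelled SmMCll than in those labelled BSMCs under both scalings used below, Cnn2 under 1 of them, and Myl9 was called in no comparison.

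The table held read counts that the authors had scaled by a factor per library and rounded, as the values themselves show. That factor was recovered from the spacing of the whole numbers, and a value divided by its factor is called implied reads. Implied reads summed to 6.39 to 9.33 M in libraries labelled BSMCs, 8.92 to 10.02 M in PASMCs and 8.93 to 9.9 M in SmMCll. The 37 genes took 1.31 to 1.57%, 1.3 to 1.41% and 1.05 to 1.17% of them. Smooth muscle markers were abundant in every library (summed values of 8 genes, 26326 to 39444), but 5 of these 8 genes are also among the 37. By label these 8 genes summed to 32567 to 39444 in BSMCs, 30916 to 34739 in PASMCs and 26326 to 30955 in SmMCll. Of 5 markers of airway smooth muscle 4 were called higher in libraries labelled PASMCs than in those labelled BSMCs (3 on unscaled reads), against the labels, and Foxf1 was not called (log2 -0.24). Hhip was at 7414 to 7798 in PASMCs and 2913 to 3491 in BSMCs, and Lgr6 was at 4116 to 4848 and 2088 to 2601. Chrm2, in the genotype name of BSMCs, was called higher in PASMCs (log2 0.98), though not on unscaled reads. Cspg4, in the genotype name of PASMCs, was not called (log2 0.40). Of 6 pericyte markers, Cspg4 among them, 4 were called higher and 1 lower in PASMCs than in BSMCs. Of all genes, 13.2% were called higher there and 8.88% lower. The markers were thus mixed. The names BSMCs and PASMCs are therefore used below only as the labels of the libraries. In bulk samples, fewer cells of a type and less RNA per cell cannot be told apart.

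Levels per exonic length spanned a wide range, as the plot of values by library shows for the values themselves. Per kilobase of exon, Myl9, the smooth muscle regulatory light chain, was at 2130 ± 368 normalized reads in libraries labelled BSMCs, 1790 ± 111 in PASMCs and 1783 ± 157 in SmMCll (SD, n = 3 in each group here and below). Csrp1, a LIM protein that binds alpha-actinin, was at 1882 ± 324, 1581 ± 98.7 and 1596 ± 146. The gap to Myl9 was smaller than the SD of Myl9 in BSMCs and larger than it in PASMCs and SmMCll. That SD includes the library factor, which both genes share. Before scaling, Myl9 had 1.85 to 1.95 implied reads per exonic base and Csrp1 1.66 to 1.73, so Myl9 was higher in every library. Pgm5, or aciculin, a protein of cell junctions and dense plaques, had the lowest level per kilobase at 59.9 ± 12.9, 79.8 ± 16.3 and 33.6 ± 5.7. The nearest above it in libraries labelled BSMCs was Myh9, a non-muscle myosin heavy chain, at 79.3 ± 16.8. That gap was larger than the SD of either gene in those libraries.

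**Figure D1:**
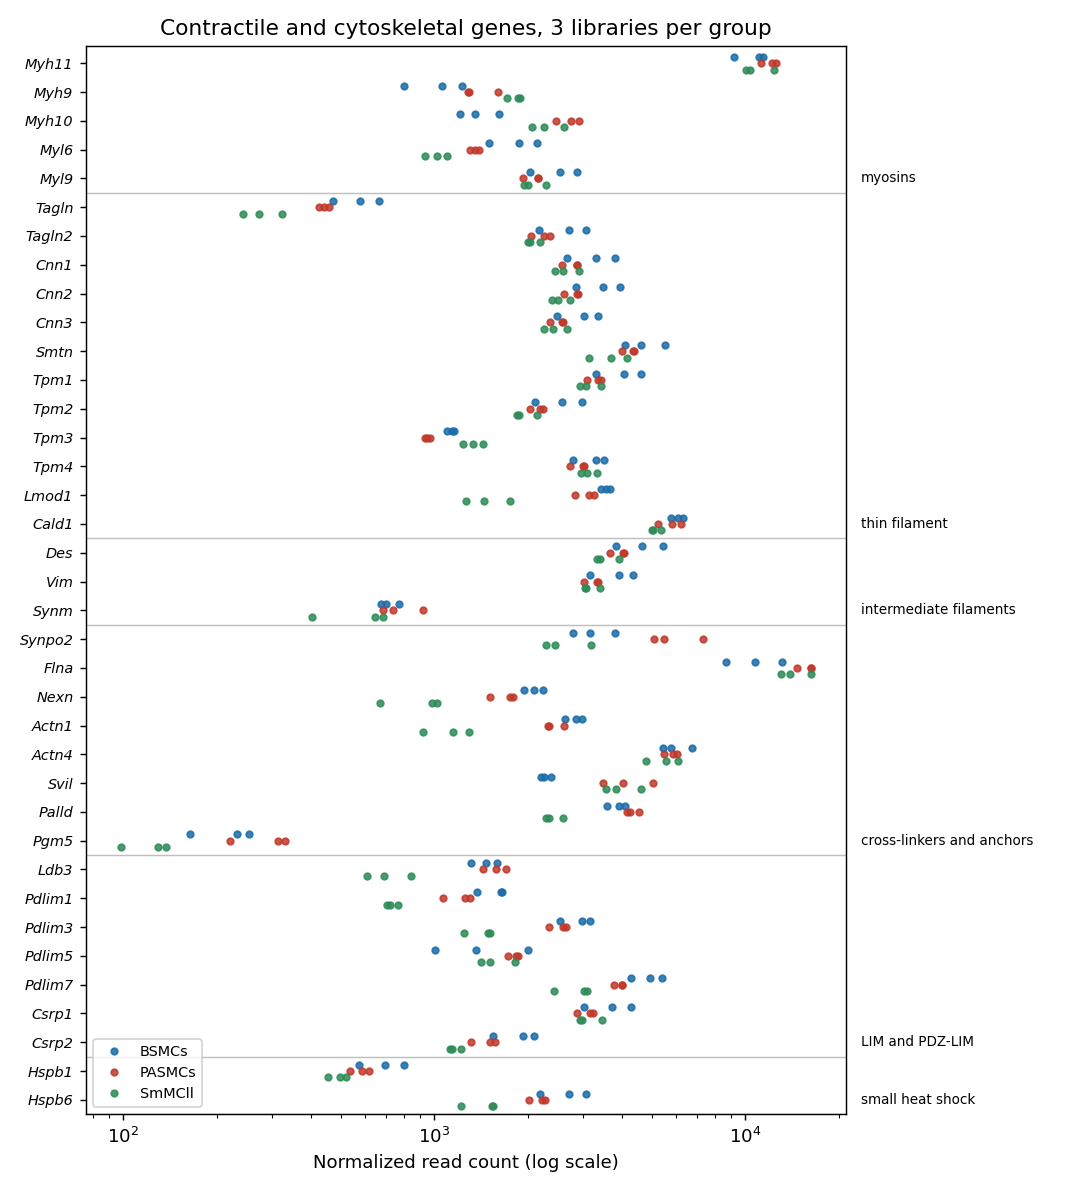
Normalized read count of each of the 37 genes (horizontal axis, log scale) in the 9 libraries, ordered by role. Each point is 1 library, and the colour gives its label. Within a gene, points of the 3 labels mostly lie close together, and the SmMCll points of Actn1 (919 to 1290), Lmod1 (1267 to 1750) and Ldb3 (606 to 839) lie below all others of that gene.

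Some of these genes varied less between replicate libraries than counting alone would give. In Myl9 the implied reads were 2261, 2263 and 2247 in libraries labelled BSMCs, 2260, 2239 and 2246 in PASMCs, and 2176, 2149 and 2163 in SmMCll. They lay within a coefficient of variation (CV) of 2.08% over libraries whose totals ran from 6.39 to 10.02 M. Csrp1 behaved in the same way, with 3239 to 3391 implied reads and a CV of 1.57%, while Synpo2, an actin-binding protein of dense bodies, had a CV of 47.1%. For 9 of the 37 genes (24.3%) the variance within groups was below the mean of the implied reads, against 2.56% of the tested genes with a known exonic length. Those 9 were Tagln, Tpm1, Hspb1, Tpm2, Cnn1, Des, Cnn2, Csrp1 and Myl9. Of these, Cnn1, Des, Cnn2, Csrp1 and Myl9 were also dense in reads, while Tagln and Hspb1 were not. In all, 9 of the 37 genes (24.3%) had at least 1 implied read per exonic base (Cnn1, Des, Tagln2, Cnn2, Tpm4, Flna, Myh11, Csrp1 and Myl9), against 1.53% of tested genes. Over all tested genes the variance was 22.9 times the mean (median) where density lay between 0.2 and 0.4 implied reads per base, and 1.18 times the mean where it exceeded 1.5. Density and constancy did not always go together, as Myh11 and Flna had CVs of 16.1% and 23.7%. What held the reads of genes such as Myl9 and Csrp1 near a constant was not tested. For them a missing call does not show equal expression.

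**Figure D2:**
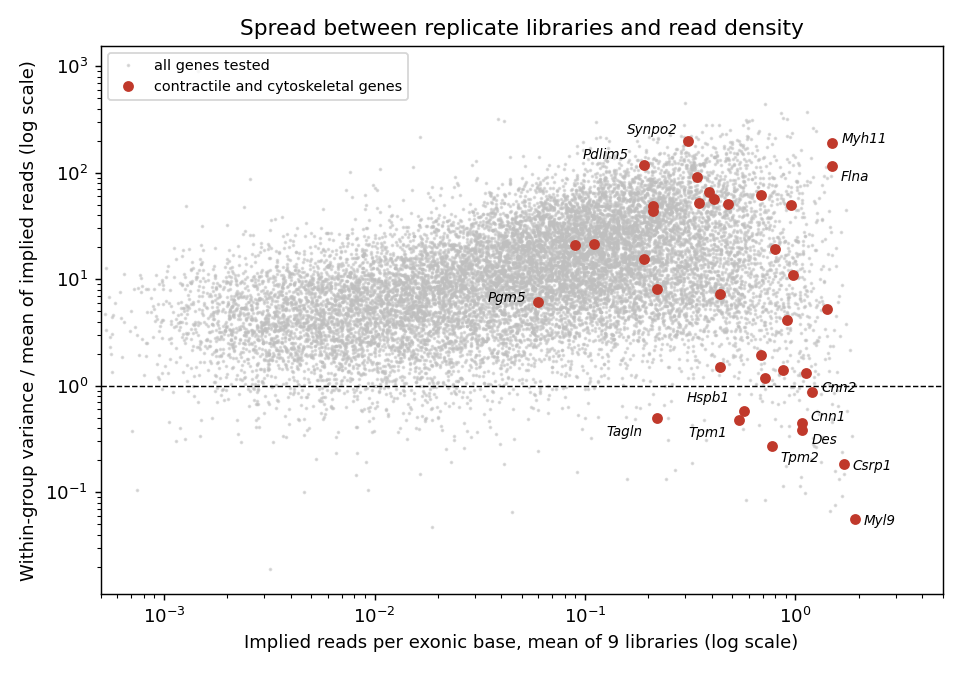
Variance within groups divided by the mean of implied reads (vertical axis, log scale) against implied reads per exonic base (horizontal axis, log scale). Red points are the 37 genes, grey points all genes tested, and the dashed line at 1 is where counting error alone would lie. Myl9 (0.0559) and Csrp1 (0.183) lie far below the line and Myh11 (190) far above it.

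When reads are nearly constant, the fold change of normalized values equals the difference of the library factors. The mean log2 factor of libraries labelled PASMCs was lower than that of BSMCs by 0.23 (difference -0.23), that of SmMCll differed from PASMCs by 0.05 and from BSMCs by -0.18. The log2 fold changes of Cnn1, Cnn3, Des, Vim, Hspb1, Tpm2, Csrp1 and Myl9, chosen after their values were seen, between PASMCs and BSMCs ran from -0.24 to -0.22, and on unscaled implied reads from -0.01 to 0.01. Each comparison below is therefore given on the normalized values and, where the call differs, also on implied reads without scaling. The median of all genes tested lay at log2 0.05, 0.03 and 0.05 on normalized values and at 0.27, -0.02 and 0.23 on unscaled reads, for PASMCs against BSMCs, SmMCll against PASMCs and SmMCll against BSMCs.

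Between libraries labelled PASMCs and BSMCs, few of the 37 genes were called: 4 were higher and 1 was lower at an adjusted p under 0.05 in limma, which is 13.5% of them against 22.1% of all genes tested (13.2% higher and 8.88% lower). Higher in PASMCs were the non-muscle myosin heavy chain Myh10, the membrane-associated actin-binding protein Svil, Synpo2 and the actin cross-linker Flna, and lower was the essential light chain Myl6. The groups did not overlap for 14 genes (37.8%), against 35.2% of all genes. The share called was below the background and the share without overlap was near it. The median log2 fold change of the 37 genes was -0.22 against 0.05 over all genes, and 0.01 on unscaled reads. On unscaled reads 5 were higher, Myh9 added, and 0 lower. Quantile normalization gave 3 higher and 8 lower, cyclic loess 4 and 8, and without BSMCs replicate 2 there were 16 lower, while without any other single library 0 were lower. The direction of the many small differences in this comparison thus rests on the scaling, and the number called lower also on that library.

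Libraries labelled SmMCll had lower values than those labelled PASMCs for 12 of the 37 genes (32.4%, against 6.83% of all genes called lower) and a higher value for 1 (2.7%, against 9.39%). The 13 called genes made 35.1% of the list, where 16.2% of all genes were called. Those lower were the anchoring and PDZ-LIM genes Pgm5, Synpo2, Ldb3, Actn1, Nexn, Palld, Pdlim3, Pdlim1 and Pdlim7, the thin filament genes Lmod1 and Tagln, and the small heat shock gene Hspb6; Tpm3, a tropomyosin of non-muscle cells, was higher. All 12 were also called lower on unscaled reads, where Myl6 was added (13 lower) and 0 were higher. The groups did not overlap for 17 genes (45.9%, against 40.5% of all genes), and the median log2 fold change was -0.20 against 0.03. Among the 18 genes listed as muscle-type 8 were lower and 0 higher, and among the 19 listed as broadly expressed 4 were lower and 1 higher. That grouping was assigned by list and not measured here.

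Against libraries labelled BSMCs, those labelled SmMCll had 18 genes lower (48.6%, against 18.2% of all genes) and 4 higher (10.8%, against 23.7%). The 22 called genes were 59.5% of the list, where 41.9% of all genes were called. The 4 higher were Myh9, Myh10, Svil and Flna, and the largest falls were those of Actn1, Lmod1 and Nexn. On unscaled reads 4 were higher and 12 lower, and these 16 were called under both scalings. Quantile normalization gave 4 higher and 28 lower, cyclic loess 4 and 27. The groups did not overlap for 20 genes (54.1%, against 50.5%), and the median log2 fold change was -0.34 against 0.05 over all genes. The 3 comparisons share their libraries and are not independent of each other.

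Markers of other cell types moved with these groups. Libraries labelled SmMCll had the highest summed values of fibroblast markers (8 genes, 40774 to 46879, against 28218 to 31160 in PASMCs and 23048 to 27975 in BSMCs), of endothelial markers (7 genes, 10153 to 11244, 4377 to 5506 and 6233 to 6667) and of mesothelial markers (6 genes, 5529 to 6711, 253 to 409 and 565 to 1332). Leukocyte markers (8 genes) summed to 3131 to 3759, 873 to 1065 and 7387 to 10638, with Ptprc at 0 in all libraries labelled PASMCs. In SmMCll most of that sum was Cd74 (1740 to 1923) and H2-Ab1 (1232 to 1538). Ptprc was at 0 to 4 in SmMCll and 391 to 760 in BSMCs, and Tyrobp at 3 to 7 and 484 to 922. Erythroid markers (5 genes) summed to 83 to 153, 7 to 20 and 292 to 674. Epithelial markers (7 genes) summed to 3091 to 3781, 3725 to 4370 and 3804 to 4598, and pericyte markers (6 genes) to 13174 to 14357, 12685 to 14281 and 6833 to 8549. Airway smooth muscle markers (5 genes) summed to 9308 to 10097, 15164 to 15600 and 7849 to 8419. Cardiac muscle shares Ldb3, Nexn, Synpo2, Pdlim3 and Des with smooth muscle. Its markers (8 genes) summed to 2760 to 3205, 4210 to 4974 and 4400 to 7341. Of these 8, 7 were called lower in SmMCll than in PASMCs (6 on unscaled reads), against 6.83% of all genes. Their part in the differences of the 37 genes was not tested.

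**Figure D3:**
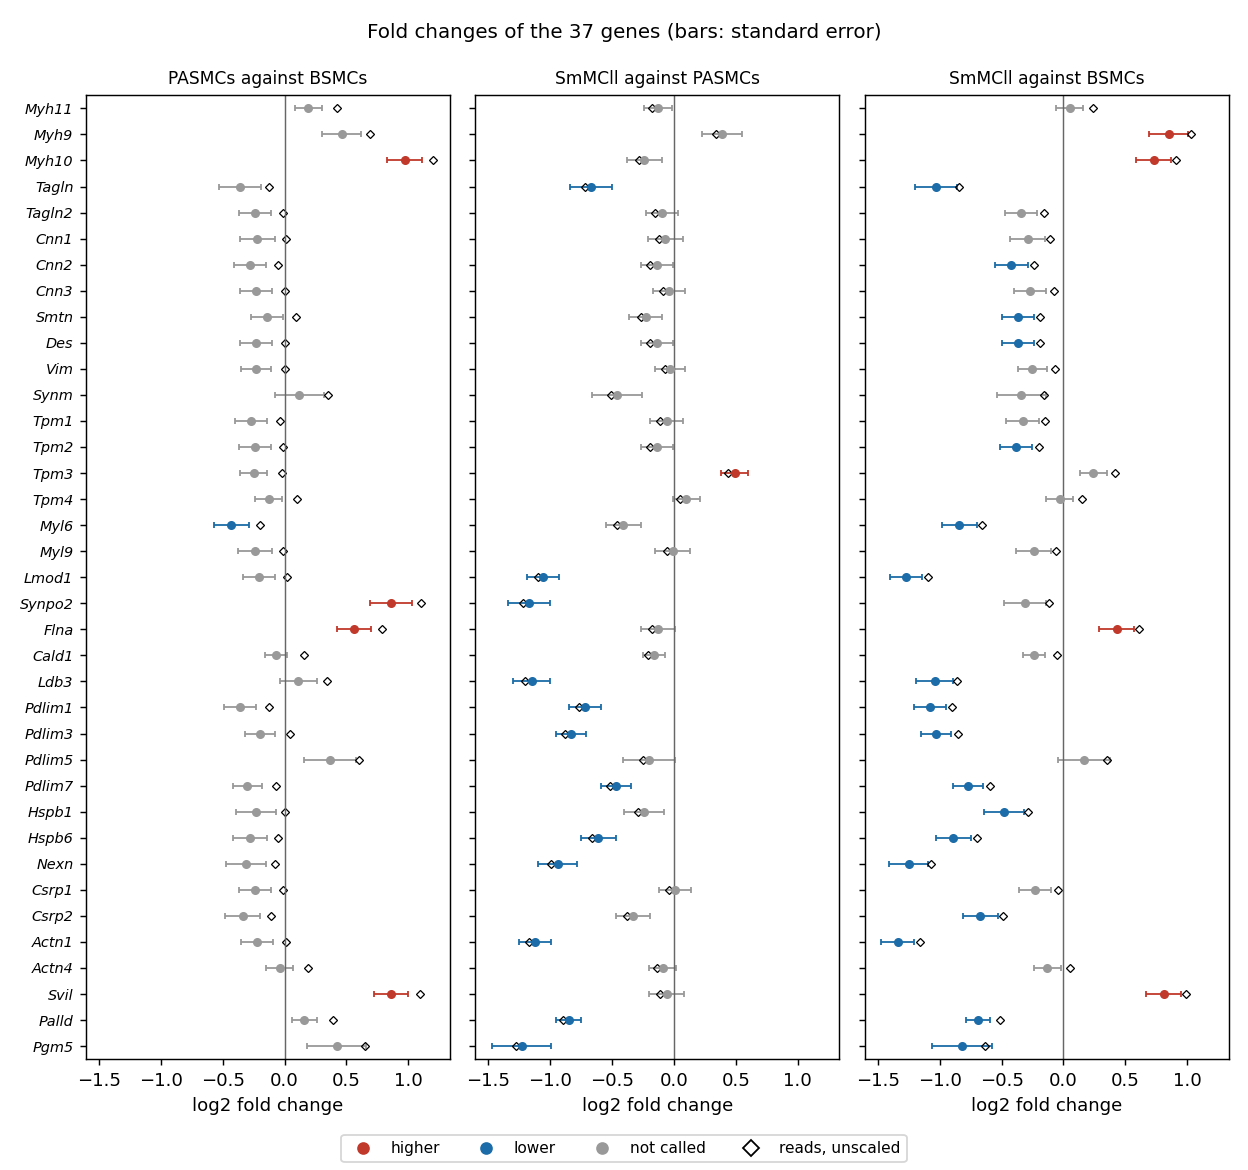
Log2 fold change (horizontal axis) of each of the 37 genes in the 3 comparisons, with bars of 1 standard error. Red and blue points were called higher and lower in limma, grey points were not called, and open diamonds are the same fold change on unscaled implied reads. The diamonds lie right of the points in both comparisons with BSMCs and close to them between SmMCll and PASMCs.

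Among the 5 myosin genes the heavy chain of smooth muscle was called in no comparison, while the non-muscle heavy chains were lowest in libraries labelled BSMCs. Myh11, the smooth muscle heavy chain, read 9171, 11404 and 11032 in libraries labelled BSMCs, 12498, 11203 and 12172 in PASMCs and 10351, 10055 and 12375 in SmMCll. The 3 groups overlapped and no comparison was called (adjusted p = 0.218, 0.496 and 0.714, with log2 differences of 0.19, -0.13 and 0.05). Myh10, the heavy chain of non-muscle myosin IIB (ENSMUSG00000020900, mm39 chromosome 11, 68582385 to 68707458), read 1353, 1608 and 1210 in BSMCs, 2907, 2754 and 2457 in PASMCs and 2053, 2251 and 2610 in SmMCll. All libraries labelled BSMCs lay below all others, and the remaining groups overlapped. Myh10 was 1.95-fold higher in PASMCs than in BSMCs (log2 0.97, SE 0.14, adjusted p = 0.000512) and 1.66-fold higher in SmMCll than in BSMCs (log2 0.73, SE 0.14, adjusted p = 0.00156). Myh9, the heavy chain of non-muscle myosin IIA (ENSMUSG00000022443, mm39 chromosome 15, 77644787 to 77726375), read 1054, 796 and 1227 in BSMCs, 1282, 1296 and 1607 in PASMCs and 1855, 1887 and 1709 in SmMCll, with no overlap between any groups. On implied reads SmMCll and PASMCs overlapped. Myh9 was 1.8-fold higher in SmMCll than in BSMCs (log2 0.85, SE 0.16, adjusted p = 0.00177). Between PASMCs and BSMCs its adjusted p was 0.0614 (log2 0.46) on normalized values and 0.0121 (log2 0.69) on unscaled reads.

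The light chains differed from each other. Myl6, the essential light chain of smooth muscle and non-muscle myosin (ENSMUSG00000090841, mm39 chromosome 10, 128326729 to 128330014), read 1870, 1500 and 2143 in libraries labelled BSMCs, 1387, 1298 and 1353 in PASMCs and 931, 1021 and 1094 in SmMCll. The groups formed 3 ranges without overlap, highest in BSMCs and lowest in SmMCll. Myl6 was 1.79-fold lower in SmMCll than in BSMCs (log2 -0.84, SE 0.14, adjusted p = 0.000738). Between PASMCs and BSMCs it was called lower on normalized values (log2 -0.43, SE 0.14, adjusted p = 0.0461) and not on unscaled reads (log2 -0.20, adjusted p = 0.251). That call was lost in 12 of 21 alternatives, among them the omission of any 1 library other than BSMCs replicate 2, where the adjusted p lay between 0.0608 and 0.14. Between SmMCll and PASMCs it was not called on normalized values (log2 -0.41, adjusted p = 0.0726) and was called lower on unscaled reads (log2 -0.46, adjusted p = 0.0323). Myl9, whose reads are given above, was called in no comparison on either scale.

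Of the 12 thin filament genes none was called between PASMCs and BSMCs, against 22.1% of all genes. All 12 had a fold change below 0 there on normalized values (median -0.24). On unscaled reads their median was -0.00. Lmod1, leiomodin, which nucleates actin filaments (ENSMUSG00000048096, mm39 chromosome 1, 135252545 to 135295803), read 3430, 3668 and 3573 in libraries labelled BSMCs, 3251, 2827 and 3136 in PASMCs and 1446, 1267 and 1750 in SmMCll. All SmMCll libraries lay far below the other 6. Its value was 2.08-fold lower in SmMCll than in PASMCs (log2 -1.06, SE 0.13, adjusted p = 0.000193) and 2.41-fold lower than in BSMCs (log2 -1.27, SE 0.13, adjusted p = 2.13e-05).

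Tagln, the actin-binding protein transgelin (ENSMUSG00000032085, mm39 chromosome 9, 45840917 to 45847356), read 577, 472 and 664 in BSMCs, 441, 424 and 459 in PASMCs and 273, 242 and 323 in SmMCll. Again no groups overlapped. Tagln was 2.04-fold lower in SmMCll than in BSMCs (log2 -1.03, SE 0.17, adjusted p = 0.000831) and 1.59-fold lower than in PASMCs (log2 -0.67, SE 0.17, adjusted p = 0.0213). The latter call was lost without any 1 of the PASMCs libraries or without SmMCll replicate 1 or 2 (adjusted p = 0.0586 to 0.0969). Tagln is uncertain: 67.9% of its exonic bases are shared with Pcsk7 and Gm48529 in the GENCODE vM21 annotation, and how the counting treated shared bases or strand is not given in the sources used here. Tagln2, its broadly expressed relative, was called in no comparison.

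Of the 4 tropomyosins, which wind along the actin filament, Tpm3 and Tpm2 were called. Tpm3 read 1156, 1097 and 1139 in libraries labelled BSMCs, 965, 935 and 950 in PASMCs and 1435, 1239 and 1333 in SmMCll, and no groups overlapped. On implied reads PASMCs and BSMCs overlapped. Tpm3 was 1.4-fold higher in SmMCll than in PASMCs (log2 0.49, SE 0.11, adjusted p = 0.0109). On unscaled reads that call was lost (log2 0.44, adjusted p = 0.109), as it was without SmMCll replicate 1 (adjusted p = 0.0615) or 3 (0.0514). Tpm2 read 2577, 2110 and 2983 in BSMCs, 2184, 2029 and 2232 in PASMCs and 1869, 1848 and 2133 in SmMCll. The SmMCll range overlapped both others, and the call against BSMCs (log2 -0.38, SE 0.13, adjusted p = 0.0392) was absent on unscaled reads (log2 -0.20, adjusted p = 0.166). It was also lost without any 1 library other than BSMCs replicate 2 (adjusted p = 0.0503 to 0.13). Tpm1 and Tpm4 were called in no comparison.

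Calponins and smoothelin, which bind actin and tropomyosin, gave only small differences. Cnn1, the calponin of smooth muscle, read 3318, 2661 and 3818 in libraries labelled BSMCs, 2872, 2575 and 2874 in PASMCs and 2595, 2437 and 2924 in SmMCll. Its groups overlapped and no comparison was called (adjusted p = 0.242, 0.828 and 0.106). Cnn2, a broadly expressed calponin, read 3482, 2858 and 3962 in BSMCs, 2905, 2614 and 2874 in PASMCs and 2503, 2392 and 2738 in SmMCll. Libraries labelled SmMCll lay below those labelled BSMCs (log2 -0.42, SE 0.13, adjusted p = 0.0202; on unscaled reads -0.24, adjusted p = 0.0909). Without BSMCs replicate 1 or 3 or SmMCll replicate 1 or 2 the Cnn2 call was lost (adjusted p = 0.0551 to 0.0688). Smtn, smoothelin, read 4603, 4097 and 5496 in BSMCs, 4388, 4011 and 4362 in PASMCs and 3684, 3140 and 4148 in SmMCll. SmMCll and BSMCs overlapped for Smtn, and its call between them (log2 -0.37, SE 0.13, adjusted p = 0.0402) was absent on unscaled reads (log2 -0.19, adjusted p = 0.191). It was also lost without any 1 library other than BSMCs replicate 2 or SmMCll replicate 3 (adjusted p = 0.0551 to 0.151). Cnn3 and Cald1 were called in no comparison. Exons of other genes cover 17.7% of Cnn3 and 16.3% of Smtn.

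Of the 3 intermediate filament genes 1 was called, in 1 comparison. Des, the desmin gene, read 4648, 3824 and 5426 in libraries labelled BSMCs, 4057, 3661 and 4037 in PASMCs and 3395, 3334 and 3920 in SmMCll. The 3 ranges overlapped. Des was called lower in SmMCll than in BSMCs on normalized values (log2 -0.37, SE 0.13, adjusted p = 0.0374) but not on unscaled reads (log2 -0.19, adjusted p = 0.139). That call was also lost without any 1 library other than BSMCs replicate 2 or SmMCll replicate 3 (adjusted p = 0.0505 to 0.126), and without BSMCs replicate 3 the fold change was -0.25. Vim, the vimentin gene, read 3924, 3164 and 4362 in BSMCs, 3327, 3016 and 3356 in PASMCs and 3076, 3056 and 3399 in SmMCll. Its implied reads lay between 3224 and 3540 in all 9 libraries. Neither Vim nor Synm, which encodes synemin, a partner of desmin (403 to 921 over the 9 libraries), was called in any comparison.

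Of the 8 cross-linkers and anchors, 5 were lower in SmMCll than in PASMCs (62.5%, against 6.83% of all genes) and 0 higher. In SmMCll against BSMCs 4 were lower (50%, against 18.2%) and 2 higher (25%, near the 23.7% of all genes). In PASMCs 3 were higher than in BSMCs (37.5%, against 13.2%). Actn1, an alpha-actinin that cross-links actin (ENSMUSG00000015143, mm39 chromosome 12, 80214321 to 80307145), read 2638, 2971 and 2848 in BSMCs, 2311, 2332 and 2611 in PASMCs and 1290, 919 and 1151 in SmMCll. The SmMCll libraries stood below the other 6 without overlap. Actn1 was 2.18-fold lower in SmMCll than in PASMCs (log2 -1.12, SE 0.13, adjusted p = 0.000193) and 2.54-fold lower than in BSMCs (log2 -1.34, SE 0.13, adjusted p = 2.2e-05). Its close relative Actn4 read 5441, 5783 and 6743, then 6043, 5481 and 5845, then 5567, 4773 and 6052 in the same order, and was called in no comparison (adjusted p = 0.795, 0.701 and 0.358). Palld, palladin, a scaffold of actin bundles (ENSMUSG00000058056, mm39 chromosome 8, 61964467 to 62355724), read 3594, 3923 and 4111 in BSMCs, 4547, 4265 and 4157 in PASMCs and 2278, 2332 and 2581 in SmMCll. The 3 groups did not overlap on normalized values, with PASMCs highest, but PASMCs and BSMCs overlapped on implied reads. Palld was 1.8-fold lower in SmMCll than in PASMCs (log2 -0.85, SE 0.10, adjusted p = 0.000164) and 1.62-fold lower than in BSMCs (log2 -0.69, SE 0.10, adjusted p = 0.00026).

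Nexn, the F-actin-binding protein nexilin (ENSMUSG00000039103, mm39 chromosome 3, 151942619 to 151971987), read 2228, 2093 and 1937 in libraries labelled BSMCs, 1791, 1754 and 1514 in PASMCs and 670, 1016 and 985 in SmMCll. The groups fell into 3 separate ranges on normalized values, lowest in SmMCll. On implied reads PASMCs and BSMCs overlapped, and only SmMCll lay apart. Nexn was 1.92-fold lower in SmMCll than in PASMCs (log2 -0.94, SE 0.16, adjusted p = 0.00184) and 2.38-fold lower than in BSMCs (log2 -1.25, SE 0.16, adjusted p = 0.000127). Pgm5 read 253, 164 and 232 in BSMCs, 330, 221 and 314 in PASMCs and 137, 129 and 98 in SmMCll. Libraries labelled SmMCll lay below all others, and the other groups overlapped. Pgm5 was 2.35-fold lower in SmMCll than in PASMCs (log2 -1.23, SE 0.24, adjusted p = 0.00439). Against BSMCs the call (log2 -0.82, SE 0.24, adjusted p = 0.0193) was absent on unscaled reads (log2 -0.63, adjusted p = 0.0659), without BSMCs replicate 1 (adjusted p = 0.0653) and without SmMCll replicate 3 (0.0876).

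Synpo2, Svil and Flna were higher in libraries labelled PASMCs than in those labelled BSMCs and then differed in SmMCll. Synpo2 (ENSMUSG00000050315, mm39 chromosome 3, 122870168 to 123029798) read 3161, 3818 and 2795 in BSMCs, 7323, 5071 and 5489 in PASMCs and 2279, 2450 and 3194 in SmMCll. PASMCs stood above all other libraries, and BSMCs and SmMCll overlapped. Synpo2 was 1.82-fold higher in PASMCs than in BSMCs (log2 0.86, SE 0.17, adjusted p = 0.00451) and 2.25-fold lower in SmMCll than in PASMCs (log2 -1.17, SE 0.17, adjusted p = 0.000723). Svil, supervillin (ENSMUSG00000024236, mm39 chromosome 18, 4920540 to 5119299), read 2204, 2379 and 2255 in BSMCs, 5059, 4025 and 3487 in PASMCs and 3841, 3571 and 4605 in SmMCll. Here BSMCs stood below all other libraries, and PASMCs and SmMCll overlapped. Svil was 1.82-fold higher in PASMCs than in BSMCs (log2 0.86, SE 0.14, adjusted p = 0.0014) and 1.75-fold higher in SmMCll than in BSMCs (log2 0.81, SE 0.14, adjusted p = 0.00106). Flna, filamin A, read 8651, 10713 and 13066 in BSMCs, 16276, 14642 and 16194 in PASMCs and 13938, 12994 and 16290 in SmMCll. BSMCs replicate 3 was above SmMCll replicate 2, and PASMCs lay above all BSMCs libraries. Flna was 1.47-fold higher in PASMCs than in BSMCs (log2 0.56, SE 0.14, adjusted p = 0.0147) and 1.35-fold higher in SmMCll (log2 0.43, SE 0.14, adjusted p = 0.0269). The first of these Flna calls was lost with quantile normalization (log2 0.26, adjusted p = 0.062) and without BSMCs replicate 1 (0.0564) or PASMCs replicate 1 (0.0605). The second was lost without BSMCs replicate 1 (log2 0.28, adjusted p = 0.103), SmMCll replicate 1 (0.0582) or SmMCll replicate 3 (0.103). Both Flna calls were also lost in limma without the trend and robust options, and the second with the 6 libraries of the comparison alone.

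**Figure D4:**
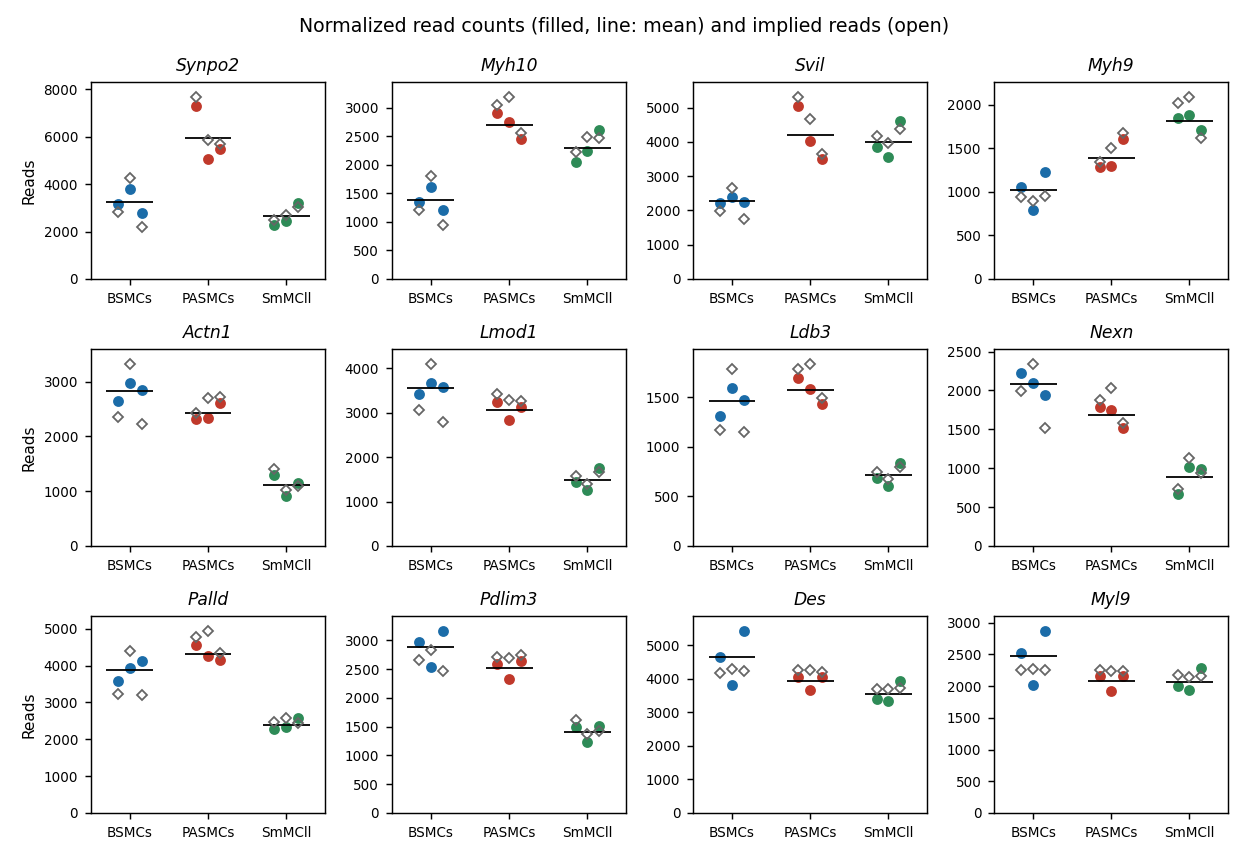
Reads (vertical axis, from 0) in each library for 12 of the 37 genes, by library label. Filled points are normalized read counts with the group mean as a line, and open diamonds are implied reads. Synpo2 is highest in PASMCs (5071 to 7323), Actn1 and Lmod1 are lowest in SmMCll, and the diamonds of Myl9 (2149 to 2263) lie almost level.

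The PDZ-LIM genes, whose proteins dock on alpha-actinin at dense bodies and Z-discs, were lower in libraries labelled SmMCll for 4 of the 5 present. Of all genes, 6.83% were called lower in SmMCll than in PASMCs and 18.2% lower than in BSMCs. Ldb3 (ENSMUSG00000021798, mm39 chromosome 14, 34248560 to 34310639) read 1309, 1592 and 1466 in BSMCs, 1697, 1583 and 1433 in PASMCs and 687, 606 and 839 in SmMCll. BSMCs and PASMCs overlapped and SmMCll lay below both. Ldb3 was 2.22-fold lower in SmMCll than in PASMCs (log2 -1.15, SE 0.15, adjusted p = 0.000281) and 2.06-fold lower than in BSMCs (log2 -1.04, SE 0.15, adjusted p = 0.000222). Pdlim3, known as ALP (ENSMUSG00000031636, mm39 chromosome 8, 46338498 to 46372585), read 2971, 2537 and 3169 in BSMCs, 2585, 2330 and 2639 in PASMCs and 1492, 1241 and 1511 in SmMCll. Its pattern was that of Ldb3. Pdlim3 was 1.78-fold lower in SmMCll than in PASMCs (log2 -0.83, SE 0.12, adjusted p = 0.000791) and 2.04-fold lower than in BSMCs (log2 -1.03, SE 0.12, adjusted p = 8.27e-05). Pdlim1 read 1636, 1369 and 1644 in BSMCs, 1250, 1063 and 1304 in PASMCs and 766, 720 and 703 in SmMCll. These were 3 separate ranges, though PASMCs and BSMCs overlapped on implied reads. Pdlim1 was 1.65-fold lower in SmMCll than in PASMCs (log2 -0.72, SE 0.13, adjusted p = 0.00265) and 2.12-fold lower than in BSMCs (log2 -1.08, SE 0.13, adjusted p = 8.1e-05). Pdlim7, known as enigma, read 4927, 4276 and 5383 in BSMCs, 4012, 3783 and 4016 in PASMCs and 3104, 2416 and 3036 in SmMCll, again without overlap. On implied reads its PASMCs and BSMCs ranges overlapped. Pdlim7 was 1.71-fold lower in SmMCll than in BSMCs (log2 -0.77, SE 0.12, adjusted p = 0.000524) and 1.39-fold lower than in PASMCs (log2 -0.47, SE 0.12, adjusted p = 0.0205). The latter call was lost without any 1 of the PASMCs libraries or without SmMCll replicate 2 (adjusted p = 0.0523 to 0.0854). Pdlim5 (1003 to 1998 over the 9 libraries) was called in no comparison.

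The 2 cysteine-rich LIM proteins, which bind alpha-actinin, differed. Csrp2 read 1932, 1545 and 2092 in libraries labelled BSMCs, 1505, 1308 and 1570 in PASMCs and 1138, 1119 and 1218 in SmMCll. SmMCll lay below both other groups. Csrp2 was 1.59-fold lower in SmMCll than in BSMCs (log2 -0.67, SE 0.14, adjusted p = 0.00255) and was not called against PASMCs (log2 -0.33, adjusted p = 0.132). Csrp1, given above, was called in no comparison.

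Of the small heat shock proteins, Hspb6, or HSP20, read 2707, 2182 and 3077 in libraries labelled BSMCs, 2268, 2021 and 2224 in PASMCs and 1527, 1221 and 1538 in SmMCll. SmMCll lay below both other groups, which overlapped. Hspb6 was 1.85-fold lower in SmMCll than in BSMCs (log2 -0.89, SE 0.14, adjusted p = 0.00063) and 1.53-fold lower than in PASMCs (log2 -0.61, SE 0.14, adjusted p = 0.013). The latter call was lost without PASMCs replicate 1 (adjusted p = 0.055) or SmMCll replicate 2 (0.0642). Hspb1, or HSP27, read 692, 573 and 796 in BSMCs, 587, 537 and 617 in PASMCs and 497, 454 and 518 in SmMCll. SmMCll lay below both groups. Hspb1 was called lower against BSMCs on normalized values (log2 -0.48, SE 0.16, adjusted p = 0.0287) and not on unscaled reads (log2 -0.29, adjusted p = 0.11). That call was also lost without BSMCs replicate 1 or 3 or any 1 of the SmMCll libraries (adjusted p = 0.0631 to 0.0949).

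A ratio of 2 genes within a library does not depend on the scaling of that library. For 10 such ratios of 8 genes to their relatives, the log2 ratio of implied reads per exonic base was taken as a description, with no test. Myh11 against Myh9 stood at 3.89, 4.61 and 3.94 in libraries labelled BSMCs, 4.05, 3.88 and 3.69 in PASMCs and 3.25, 3.18 and 3.62 in SmMCll. SmMCll lay below both other groups. Myh11 against Myh10 stood at 3.22, 3.29 and 3.65 in BSMCs, 2.56, 2.49 and 2.77 in PASMCs and 2.79, 2.62 and 2.71 in SmMCll, so that BSMCs were highest. Tagln against Tagln2 fell from -2.16 to -2.14 in BSMCs and -2.30 to -2.21 in PASMCs to -2.98 to -2.69 in SmMCll. Since 67.9% of the exonic bases of Tagln are shared with other genes, the level of that ratio is uncertain. Tpm1 against Tpm3 was 1.5 to 1.93, 1.63 to 1.76 and 1.01 to 1.27, and Hspb6 against Hspb1 was 0.77 to 0.81, 0.69 to 0.79 and 0.27 to 0.46, both lower in SmMCll without overlap. Tpm2 against Tpm4 was also lower in SmMCll without overlap, at -0.81 to -0.63, -0.87 to -0.83 and -1.13 to -1.05. Csrp1 against Csrp2 was higher in SmMCll without overlap, at 1.09 to 1.19, 1.19 to 1.29 and 1.54 to 1.65. So was Cnn1 against Cnn2, at -0.26 to -0.21, -0.18 to -0.15 and -0.13 to -0.06. The means of Cnn1 against Cnn3 (0.29, 0.30 and 0.27) and of Des against Vim (0.61, 0.62 and 0.50) differed by at most 0.12. Des against Vim still lay lower in SmMCll without overlap (0.58 to 0.65, 0.6 to 0.62 and 0.46 to 0.54). Cnn1 against Cnn3 overlapped in every comparison. Each ratio named here includes a gene with at least 1 read per base or with a variance below its mean. Those genes were Myh11, Tagln, Tagln2, Tpm1, Tpm2, Tpm4, Hspb1, Csrp1, Cnn1, Cnn2 and Des, so all of these ratios carry that limit.

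**Figure D5:**
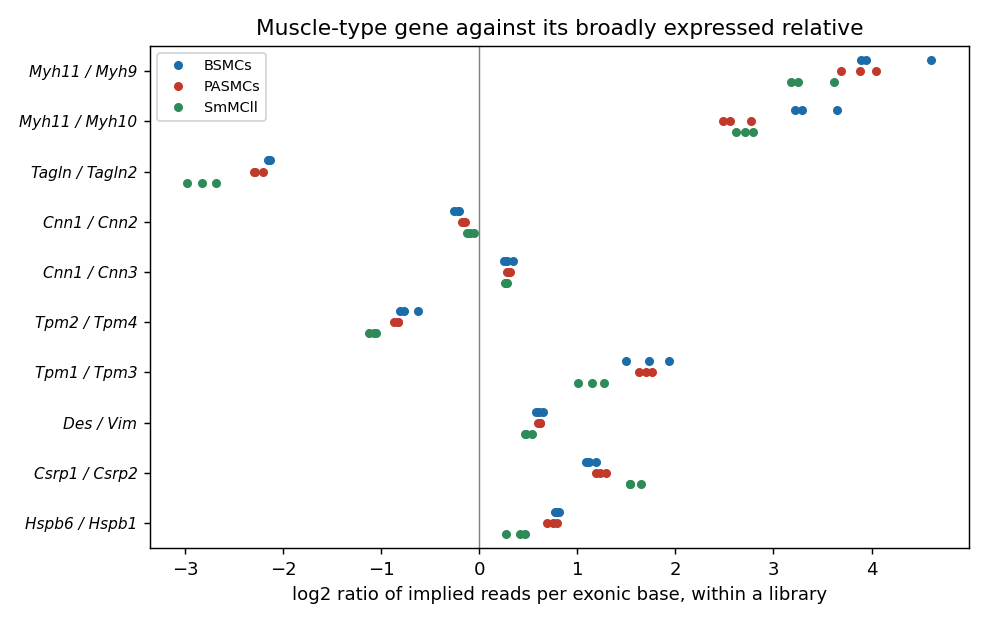
Log2 ratio of implied reads per exonic base (horizontal axis) of a gene to its relative, 1 point per library, coloured by label. The grouping as muscle-type or broadly expressed was assigned by list and not measured, and for Csrp1 and Csrp2 it is uncertain. The SmMCll points of Tpm1 / Tpm3 (1.01 to 1.27) and Hspb6 / Hspb1 (0.27 to 0.46) lie left of the others, and those of Csrp1 / Csrp2 (1.54 to 1.65) lie right.

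The genes that set light chain phosphorylation are the kinase and phosphatase of the light chain and the RhoA pathway that acts on them. Of 20 listed genes, all tested, 2 were higher and 1 lower in libraries labelled PASMCs than in BSMCs, 0 higher and 3 lower in SmMCll than in PASMCs, and 1 higher and 8 lower in SmMCll than in BSMCs. In either direction together these calls were 15% of the list, 15% and 45%, against 22.1%, 16.2% and 41.9% of all genes. Each such share was near or below the background. By direction, of all genes 9.39% were higher and 6.83% lower in SmMCll than in PASMCs. Against BSMCs, 23.7% of all genes were higher in SmMCll and 18.2% lower. The listed genes called in SmMCll were thus mostly lower, unlike those of all genes. On unscaled reads the counts were 2 and 1, 0 and 4, and 1 and 3. Without BSMCs replicate 2 the called genes numbered 11 between PASMCs and BSMCs and 6 between SmMCll and PASMCs, and without BSMCs replicate 3 the latter were 7. Arhgef11, a RhoA exchange factor, read 114, 158 and 147 in BSMCs, 596, 397 and 518 in PASMCs and 570, 617 and 713 in SmMCll. It was higher by log2 1.84 in PASMCs (SE 0.20, adjusted p = 7.6e-05) and by 2.18 in SmMCll (SE 0.20, adjusted p = 1.18e-05) than in BSMCs. Ppp1r12b, a targeting subunit of the light chain phosphatase, read 2269, 2924 and 2260 in BSMCs, 6444, 5274 and 5239 in PASMCs and 2844, 2824 and 3842 in SmMCll. Like Synpo2 it was highest in PASMCs (log2 1.19 against BSMCs, adjusted p = 0.000248; SmMCll against PASMCs -0.84, adjusted p = 0.00258). The related subunits Ppp1r12a and Ppp1r12c were lower in SmMCll than in PASMCs (log2 -1.07, adjusted p = 5.05e-05, and -0.71, adjusted p = 0.00126) and than in BSMCs (log2 -1.09, adjusted p = 1.46e-05, and -0.73, adjusted p = 0.000471). Myl12b, a non-muscle regulatory light chain, was lower in PASMCs than in BSMCs (log2 -0.94, adjusted p = 0.0126). Rock1, a RhoA kinase, was called lower in SmMCll than in BSMCs (log2 -0.68, adjusted p = 0.0462) and not on unscaled reads.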

How the data were processed

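RNA from sorted mouse lung cells was measured in 9 libraries, prepared with the SMART-Seq v4 kit from at most 10 ng of total RNA, per the labels' protocols. The submitters' processing notes list the build mm39 and, with no role or order, DESeq2 1.36.0, featureCounts 2.0.4, Picard 3.1.1, STAR 2.7.11a and Trimmomatic 0.39. The values deposited by the authors, recorded here with the unit score, are read counts per gene that were normalized and rounded to whole numbers, as the values themselves show; the raw counts that had been thought possible were not used here. Each library factor was recovered from whole numbers that never occurred or occurred too often; on simulated data it was off by at most 0.0084%. Dividing by it gave implied reads, 6.39 to 10.02 M per library, which set the precision of each value. Without molecular identifiers, reads are not independent molecules.

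The fit took 15647 genes that reached 10 in 3 or more libraries, as log2 of value plus 1, with 1 limma model of all 9 libraries (limma 3.58.1, R 4.3.3, trend and robust options). Benjamini-Hochberg adjustment covered all of these genes, and a gene was called at an adjusted p under 0.05. Fold changes are on that log2 scale. The test was also tried on simulated data. Gene coordinates are those of the deposited table; exonic lengths came from GENCODE vM21 and were found for 96.7% of genes. Tables and plots used Python 3.11.15, numpy 2.4.6, pandas 2.3.3 and matplotlib 3.10.9. The members and the gene lists were chosen with earlier results of these data known. Values per library are given for members called in at least 1 comparison and for Myh11, Tagln, Cnn1, Des and Vim; of the light chain phosphorylation list, for up to 3 called genes in each direction. Actn4 and the reads of Myl9 and Csrp1 were added after their values were seen. The 21 alternatives were 2 pseudocounts, 2 filters, 3 other scalings, a replicate block, array weights, the 6 libraries of a comparison alone, eBayes without options, omission of each library, and voom on implied reads, added after seeing the data.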

Additional observations from a re-analysis of the deposited data

How the results depend on the processing

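In the 3 comparisons (PASMCs against BSMCs, SmMCll against PASMCs, SmMCll against BSMCs), 3 of 5, 9 of 13 and 15 of 22 calls among the 37 genes held under every one of the 21 alternatives, and no fold change that was called reversed. Of the genes not called, 13 of 32, 21 of 24 and 4 of 15 stayed so under all of them. With a single library left out, the genes called ran from 1701 to 6364, 1597 to 3205 and 4254 to 8056, against 3451, 2539 and 6553 with all libraries. The 37 genes called higher then ran from 3 to 5, 0 to 2 and 3 to 5, those called lower from 0 to 16, 9 to 14 and 12 to 26, and the genes of light chain phosphorylation called from 2 to 11, 3 to 7 and 7 to 13. The highest counts of all genes and of the 37 genes called lower in the comparisons with BSMCs came without BSMCs replicate 2.

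For PASMCs against BSMCs, the genes called lower (1 of the 37) were 0 with no filter on low values, unscaled reads, the 6 libraries alone or eBayes without trend and robust options, 2 with array weights and 8 with quantile or cyclic loess normalization; both of these gave 5 light chain phosphorylation genes, and the 6 libraries alone gave 1926 genes called. For SmMCll against PASMCs, array weights gave 5082 genes, 2 of the 37 higher and 8 light chain phosphorylation genes, the 6 libraries alone gave 4345, 2 and 8, quantile normalization gave 6 of the last list, and unscaled reads gave 0 of the 37 higher. For SmMCll against BSMCs, quantile normalization gave 28 of the 37 lower and unscaled reads 4 light chain phosphorylation genes. For single genes, eBayes without trend and robust options also lost the calls of Flna and Myl6 in PASMCs against BSMCs. It lost those of Pdlim7 and Hspb6 in SmMCll against PASMCs, and of Flna, Cnn2, Smtn, Des and Tpm2 in SmMCll against BSMCs. The 6 libraries alone lost Myl6 in PASMCs against BSMCs, and Flna, Smtn, Des, Tpm2 and Hspb1 in SmMCll against BSMCs. Array weights lost Smtn and Des there. The causes were not tested.

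Groups share replicate numbers. Deviations from the group means correlated at -0.124 to 0.136 between same-numbered libraries and at -0.19 to 0.14 between differently numbered ones. With 3 libraries per group this cannot show whether the numbers pair libraries. With a replicate block 2 of the 37 genes were lower in PASMCs than in BSMCs, and it added 5 calls over the 3 comparisons and lost 0. At least 1 implied read per exonic base was reached by 9 of the 37 genes. Myh11 and Flna, among these 9, still varied (CV 16.1% and 23.7%), and Vim, under that density, hardly did (2.96%). A missing call says least for genes whose reads were nearly constant, whatever their density.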
